A study of Mus musculus with 8 samples.

Results

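Genes whose products copy the genome and divide the chromosomes were followed across 4 groups of cultured mouse cells on 8 Illumina BeadChips. A gene was taken as a member when the platform's symbol for it matched a fixed name pattern covering the Mcm, Gins, Rfc, Orc, Pol, Prim, Cenp, Kif, Cdc, Cdca, Ncap and cyclin series together with single genes such as Pcna, Top2a and Birc5. The pattern took 177 probes of 118 genes, out of 8576 genes with a named probe. It reads names and no measured value. By a list of roles, 86 of the 118 genes act in replication or mitosis, and 12 are transport and other kinesins. The other 20 match the name pattern but stand on no role list, such as the partners of the GTPase Cdc42. Not all of these 20 are foreign to the process: Cenps, a centromere gene, Poldip2, a partner of polymerase delta, and Cdc34, an enzyme of the cell cycle, are among them. The label therefore suits the 86 genes with a role, and the other matches are described apart.

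The groups hold 2 arrays each. The fNSC group is neural stem cells (NSC) titled female, with genotype OG2ROSA and the number P27 in the sample name. The pNSC group is parthenogenetic NSC, cells from an egg activated without sperm that hold only maternal genome copies, with genotype OG2+/- and the number P18. The miPS-NSC group, also OG2+/- and numbered P8, is taken, by its name and the title of the series, to be NSC differentiated from induced pluripotent stem cells. Its sample names read pips-NSC instead, and which cells the pluripotent cells were made from was not settled here. Mouse embryonic fibroblasts (MEF) are OG2+/- in the labels, while the columns of the signal table name OG2ROSA1 for them. All groups are labelled female, and the labels give the NSC medium with EGF and bFGF for every group, MEF included. The fNSC group thus differs from pNSC and miPS-NSC in labelled genotype and in the number in the name. In those comparisons the part of either in a difference cannot be told apart. The pNSC and miPS-NSC groups share the labelled genotype OG2+/- and differ in the number, P18 against P8. The part of the number there cannot be told apart from that of the group. For MEF the genotype is unsettled, since labels and columns differ. Whether the paired arrays hold RNA of separate cultures is not stated, so each p-value rests on array-to-array spread that may be technical only.

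As background, a cell licenses its replication origins by loading the ring of Mcm2 to Mcm7 with the help of the origin recognition complex (Orc genes) and Cdc6, and the ring later unwinds DNA together with Cdc45 and the GINS complex. Polymerases alpha, delta and epsilon then copy the strands, held by the sliding clamp Pcna that the Rfc genes load, with nucleotides made by ribonucleotide reductase (Rrm1, Rrm2). Cyclins with their kinases drive these steps, and in mitosis Aurora and Polo kinases, condensin, centromere proteins and kinesin motors build the spindle and part the chromosomes. Neural stem cells grown with EGF and bFGF divide in culture, and many replication and mitosis genes are transcribed in waves tied to the cell cycle. E2F factors are known to act on the replication genes, and the DREAM complex and MYB-MuvB, through an element called CHR, on the mitotic ones.

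The promoters of 6 members are shown, picked from the genes that differ between the NSC groups further down: Mcm3, Mcm5, Mcm6 and Cdc6 for replication, Cdc20 and Cdca8 for mitosis. Each runs 5′ to 3′ from 250 bases before to 50 bases after the start listed by RefSeq (GRCm38.p6), and capitals mark matches on either strand to 3 motifs: E2F (TTTCCCGC, TTTGGCGC, TTTCGCGC or TTTGCCGC), CHR (TTTGAA or TTCGAA) and the CCAAT box. They lie at chr1:20820263-20820562 (Mcm3, minus strand), chr8:75109259-75109558 (Mcm5, plus strand), chr1:128359656-128359955 (Mcm6, minus strand), chr11:98907901-98908200 (Cdc6, plus strand), chr4:118437294-118437593 (Cdc20, minus strand) and chr4:124936868-124937167 (Cdca8, minus strand).
Mcm3: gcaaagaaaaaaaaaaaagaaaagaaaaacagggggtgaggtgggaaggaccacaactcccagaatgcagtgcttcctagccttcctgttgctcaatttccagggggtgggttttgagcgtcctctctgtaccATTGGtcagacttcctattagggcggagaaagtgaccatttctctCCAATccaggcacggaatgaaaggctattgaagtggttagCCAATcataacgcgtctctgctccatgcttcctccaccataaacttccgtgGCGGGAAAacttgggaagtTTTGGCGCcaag
Mcm5: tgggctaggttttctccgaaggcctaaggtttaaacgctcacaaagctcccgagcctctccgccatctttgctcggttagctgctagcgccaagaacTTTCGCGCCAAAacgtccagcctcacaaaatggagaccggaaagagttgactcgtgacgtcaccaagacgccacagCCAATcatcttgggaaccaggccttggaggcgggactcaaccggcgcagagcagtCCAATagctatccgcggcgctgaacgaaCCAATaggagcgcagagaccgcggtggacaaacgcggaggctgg
Mcm6: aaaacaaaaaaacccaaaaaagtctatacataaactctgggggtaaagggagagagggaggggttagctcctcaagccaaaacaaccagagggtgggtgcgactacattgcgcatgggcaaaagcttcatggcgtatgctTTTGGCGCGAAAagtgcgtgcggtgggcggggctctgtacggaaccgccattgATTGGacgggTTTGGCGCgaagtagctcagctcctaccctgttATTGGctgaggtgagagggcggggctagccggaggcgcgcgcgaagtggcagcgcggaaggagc
Cdc6: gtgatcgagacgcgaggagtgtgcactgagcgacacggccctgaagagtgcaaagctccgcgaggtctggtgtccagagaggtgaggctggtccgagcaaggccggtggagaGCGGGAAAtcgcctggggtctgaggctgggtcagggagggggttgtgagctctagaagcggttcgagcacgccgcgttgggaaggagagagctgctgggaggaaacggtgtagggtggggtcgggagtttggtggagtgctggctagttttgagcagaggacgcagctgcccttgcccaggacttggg
Cdc20: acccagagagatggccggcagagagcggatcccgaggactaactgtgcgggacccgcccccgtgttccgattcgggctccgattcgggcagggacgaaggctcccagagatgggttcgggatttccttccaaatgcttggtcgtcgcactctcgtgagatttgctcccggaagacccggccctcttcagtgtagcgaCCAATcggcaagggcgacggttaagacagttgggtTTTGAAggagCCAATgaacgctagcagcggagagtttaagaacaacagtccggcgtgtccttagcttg
Cdca8: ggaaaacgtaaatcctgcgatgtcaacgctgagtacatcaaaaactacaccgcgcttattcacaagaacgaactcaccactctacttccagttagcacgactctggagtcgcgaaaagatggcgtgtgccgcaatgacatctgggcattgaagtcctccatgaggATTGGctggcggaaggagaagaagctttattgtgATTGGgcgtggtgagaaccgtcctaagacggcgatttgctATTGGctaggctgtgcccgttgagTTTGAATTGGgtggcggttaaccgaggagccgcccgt
The promoters of Mcm3 and Mcm5 held 2 E2F matches each, that of Mcm6 held 3 and that of Cdc6 held 1, and none of these 4 held a CHR match. In Mcm5 and Mcm6, 2 of the E2F matches overlap each other on opposite strands. Cdc20 and Cdca8 held no E2F match, 1 CHR match each, and 2 and 4 CCAAT matches. In Cdca8 the CHR match overlaps a CCAAT match. The promoters of Rrm2 and Kif2c, which also differ between NSC groups, are not shown. Rrm2 held 1 CCAAT match and no E2F or CHR match, and Kif2c held 1 CHR match and no other. The 6 shown therefore do not stand for all genes that differ.

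A promoter was given for 103 of the 118 members, and where a gene lists several starts the first was taken. An E2F match occurred in 20.4% of these promoters against 2.32% of all 27025 promoters of the same length, a CHR match in 33.0% against 19.4%, and a CCAAT match in 52.4% against 37.9%. The shares differed by role. Among 15 licensing and helicase genes 46.7% held an E2F match and 33.3% a CHR match, whereas among 8 mitotic kinesins 25% held an E2F match and 87.5% a CHR match. The 14 DNA synthesis genes held an E2F match in 21.4% and a CHR match in 0.0%, and the 12 mitotic kinase, checkpoint and anaphase-promoting complex genes held 0.0% and 58.3%. These matches are letters in a window, not sites shown to be bound.

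Of the 118 members, 115 were tested, having a probe with a detection p under 0.01 on each array of 1 group or more. The 3 left out are transport kinesins (Kif27, Kif5b and Kif3b). All 86 genes with a role were tested, and 97 members were detected on all 8 arrays. Of the fNSC arrays both detected 111 members, of the pNSC arrays 109, of the miPS-NSC arrays 108 and of the MEF arrays 103. Levels are log2 intensities after background correction, an added offset of 16 and quantile normalization. A step of 1 is a doubling of the intensity with the offset included, so folds of dim genes come out smaller than without it. The difference between the arrays of a pair had an SD over members of 0.192 (fNSC), 0.22 (pNSC), 0.219 (miPS-NSC) and 0.17 (MEF). Between 10553 and 10902 of 25697 probes were detected per array, with 34 to 40 beads behind a typical probe. A difference is called when limma's adjusted p over all 8107 genes is under 0.05 and the change is at least 2-fold. The heat map of members by role shows the 8 arrays side by side.

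**Figure D1:**
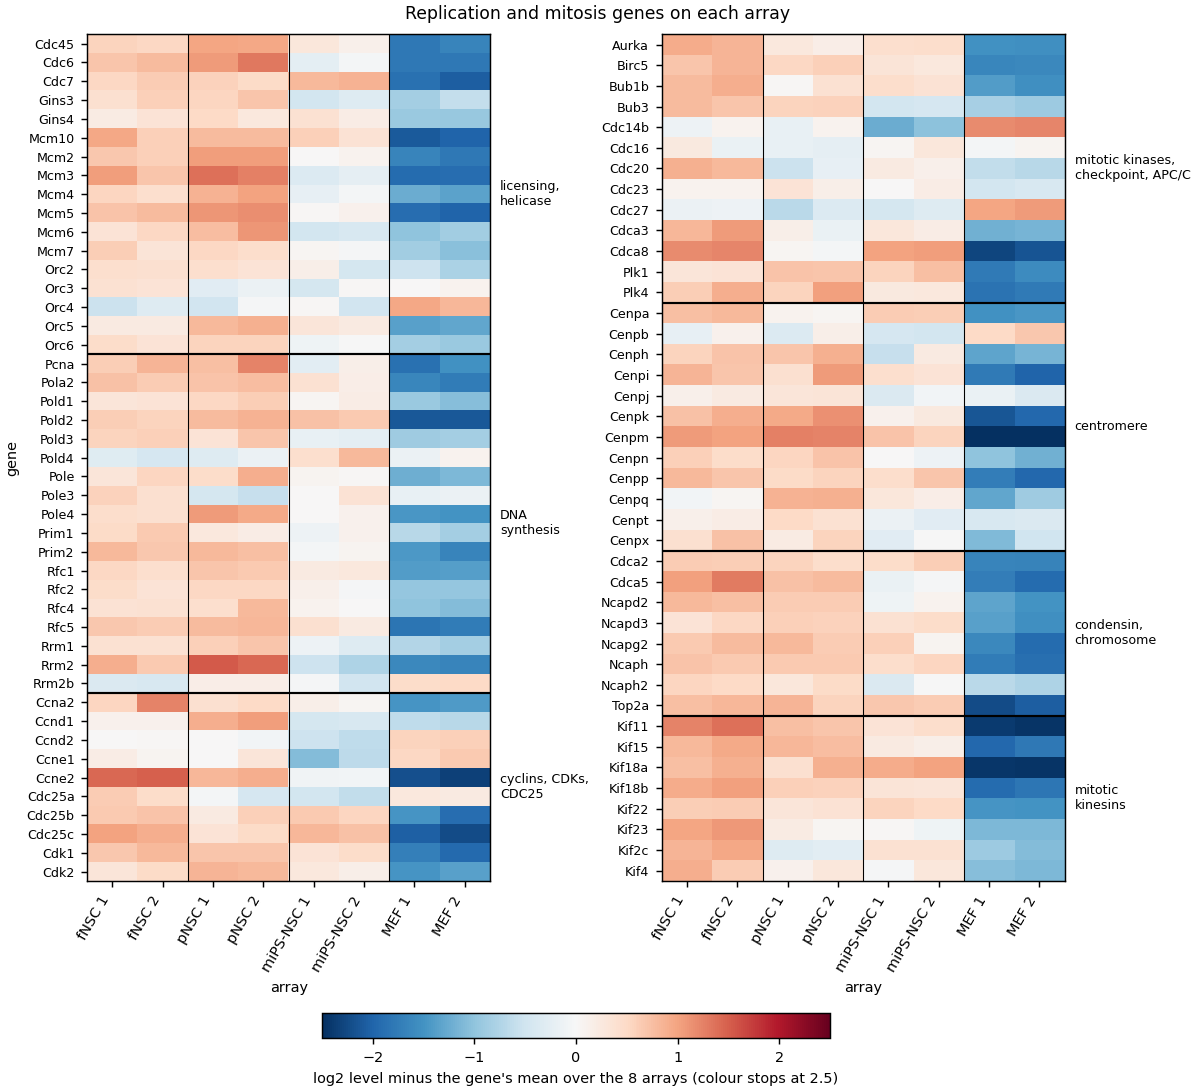
Log2 level of each of the 86 replication and mitosis genes on each of the 8 arrays, minus the gene's mean over the arrays (colour scale, stopping at 2.5), grouped by role. The MEF columns are blue for most genes, and exceptions such as Orc4, Cdc14b, Cdc27 and Ccnd2 are red there.

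Against MEF, most replication and mitosis genes were higher in all 3 kinds of NSC. In fNSC 78 members were higher and 9 lower, so that 75.7% were called against 43.1% of all genes (25.9% higher, 17.2% lower). In pNSC 74 were higher and 9 lower (72.2% against 43.4% of all genes, 25.8% higher and 17.6% lower), and in miPS-NSC 65 were higher and 13 lower (67.8% against 42%, of which 24.8% higher and 17.2% lower). The median log2 difference of the members was 1.55 in fNSC, 1.48 in pNSC and 1.10 in miPS-NSC, where the medians over all genes were 0.25, 0.21 and 0.22. Restricted to the 86 genes with a role, the medians were 1.90, 1.93 and 1.47, with 70, 68 and 57 genes higher. A total of 61 members, 56 of them with a role, was called higher in all 3 NSC groups, against 16.8% of all genes. The 3 comparisons share the MEF arrays and are not independent. In bulk RNA, fewer dividing cells and less of a transcript per cell cannot be told apart.

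The marker genes of the set give the range. Top2a, the topoisomerase that untangles chromosomes before they part, read 12.28 and 12.37 in fNSC, 12.38 and 12.09 in pNSC, 12.20 and 12.16 in miPS-NSC, and 9.30 and 9.47 in MEF. All 6 NSC arrays lay above both MEF arrays, and the folds were 7.65, 7.20 and 6.93 (adjusted p at most 7.2e-07, limma). Mcm3, a subunit of the helicase ring, read 9.95 and 9.59 in fNSC, 10.28 and 10.16 in pNSC, 8.56 and 8.67 in miPS-NSC, and 6.97 and 6.99 in MEF. Its fold over MEF was 6.91 in fNSC, 9.44 in pNSC and 3.10 in miPS-NSC. Cdc20, the activator of the anaphase-promoting complex, read 12.33 and 12.26 in fNSC, 10.90 and 11.23 in pNSC, 11.67 and 11.57 in miPS-NSC, and 10.83 and 10.76 in MEF. It was called higher than MEF in fNSC (2.82-fold, adjusted p = 2.01e-05), whereas the log2 differences of 0.27 in pNSC (adjusted p = 0.0791) and 0.82 in miPS-NSC (1.77-fold) did not reach a call. Ccnd1, cyclin D1 that links growth factor signals to the cell cycle, was called in pNSC (log2 difference 1.64, 3.11-fold) and not in fNSC (0.77) or miPS-NSC (0.25). Its probes disagree: in miPS-NSC the others gave 1.98 and -0.30. These other probes also differ from each other between pNSC and fNSC, as given further down. The difference of Ccnd1 from MEF therefore depends on the probe in fNSC too.

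**Figure D2:**
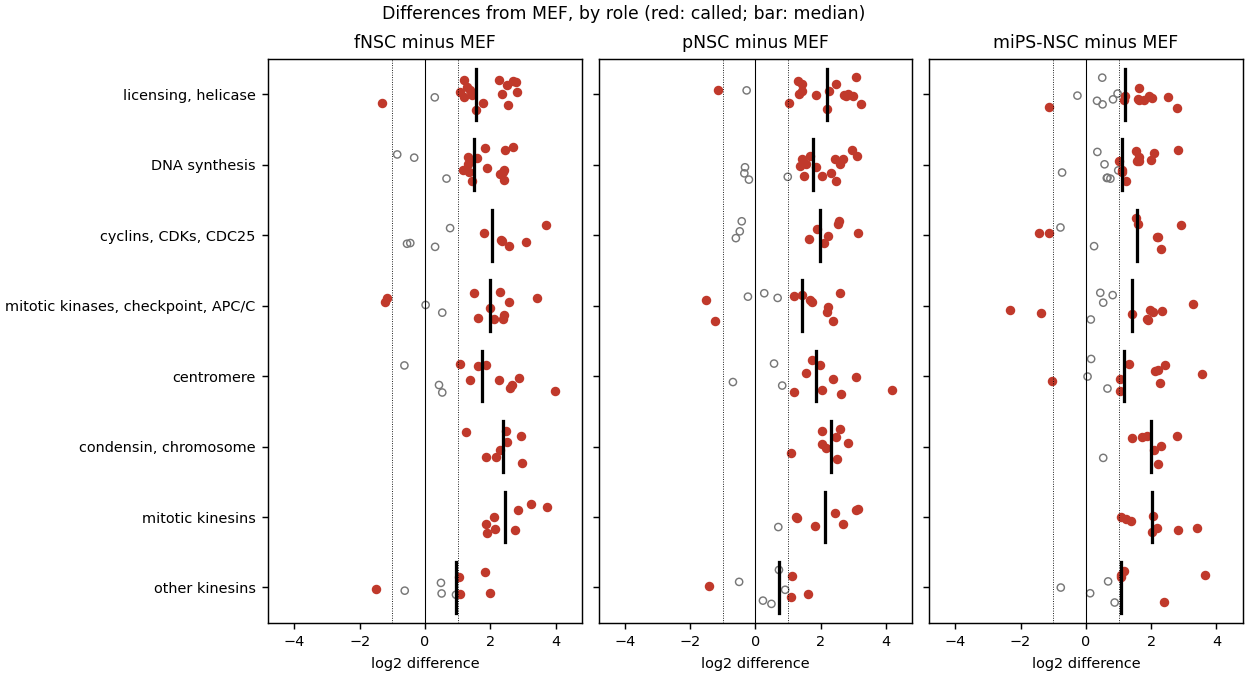
Log2 difference of each member from MEF in fNSC, pNSC and miPS-NSC, by role, with called members in red, the list median as a bar and dotted lines at 2-fold. The condensin and mitotic kinesin lists sit to the right of 0 in all 3 panels.

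Among the licensing and helicase genes, 15 of 17 were higher than MEF in fNSC, 15 in pNSC and 10 in miPS-NSC. Mcm10, which helps to start the helicase, was higher by log2 differences of 2.83, 2.84 and 2.53, and Cdc7, the kinase that fires origins, by 2.53, 2.48 and 2.80. All 6 ring genes Mcm2 to Mcm7 were called higher in fNSC and in pNSC, with median differences of 2.06 and 2.5. In miPS-NSC 4 of the 6 were called and the median was 1.40, since Mcm6 (0.51) and Mcm7 (0.97) did not reach 2-fold. The 3 other probes of Mcm6 gave 1.48, 1.36 and 1.15 there, and under median centring without background correction 1 of the 6 genes lay below 0. Orc4, of the origin recognition complex, was the exception, at least 2.29-fold, 2.12-fold and 2.03-fold lower than MEF, but it was detected on both arrays only in MEF, and a second probe of the gene gave 0.04 in pNSC.

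DNA synthesis genes were higher in 15 of 18 cases in fNSC, 14 in pNSC and 11 in miPS-NSC. Pold2, the accessory subunit of polymerase delta, differed from MEF by 2.71, 2.95 and 2.81, and the clamp Pcna by 2.42, 2.68 and 1.63. Rrm2, the cell cycle controlled subunit of ribonucleotide reductase, was called in fNSC (2.42) and pNSC (3.12) and not in miPS-NSC (0.99, 1.98-fold). Its second probe gave only 0.31, 0.74 and -0.78, so its difference from MEF depends on the probe. Rrm2b, the subunit known as a p53 target, was called in none of the 3, with differences of -0.85, -0.32 and -0.73. Pole3 and Pold4 were also called in none.

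Cyclins differed among themselves, also within the D and E types. Ccne2, cyclin E2 of the start of S phase, read 9.91 and 9.97 in fNSC, 9.31 and 9.39 in pNSC, 8.39 and 8.4 in miPS-NSC, and 6.28 and 6.15 in MEF, where it was detected on 1 array only. It was at least 12.7-fold higher in fNSC, at least 8.42-fold in pNSC and at least 4.35-fold in miPS-NSC. Here "at least" sets the brighter group against the higher of the probe's own value and the dimmest detected signal of an array (6.13 to 6.29). Cdk1, the kinase of mitotic entry, was higher by 2.56, 2.52 and 2.22, and Cdc25c, the phosphatase that activates it and not detected on either MEF array, was at least 7.14-fold, 4.89-fold and 6.33-fold higher. Ccnd2 and Ccne1 lay the other way: Ccnd2 differed by -0.55, -0.60 and -1.14 and Ccne1 by -0.45 and -0.42 in fNSC and pNSC, with calls only in miPS-NSC, where Ccne1 was detected on 1 array and was at least 2.46-fold lower.

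Condensin and mitotic kinesin genes were called almost throughout. All 8 condensin and mitotic chromosome genes were called higher in fNSC and pNSC and 7 in miPS-NSC, with medians of 2.39, 2.31 and 1.98. Mitotic kinesins were called higher in 8, 7 and 8 of 8 cases, with medians of 2.45, 2.13 and 2.04. Kif11, the motor that pushes spindle poles apart, read 10.64 and 10.78 in fNSC, 10.14 and 10.09 in pNSC, 9.74 and 9.84 in miPS-NSC, and 7.0 and 6.94 in MEF, folds of 13.4, 8.82 and 7.04. Cenpm, of the inner kinetochore, was not detected on either MEF array (5.30 and 5.55) and read between 8.91 and 9.6 on the NSC arrays. It was at least 8.85-fold, 10.2-fold and 6.70-fold higher in fNSC, pNSC and miPS-NSC. Aurora kinase A (Aurka) was 5.33-fold, 3.33-fold and 3.88-fold higher, Polo kinase Plk1 3.97-fold, 5.19-fold and 5.0-fold, and Cdca8, a subunit of the chromosomal passenger complex, 10.8-fold, 4.69-fold and 9.63-fold.

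A set of 7 members was lower than MEF in all 3 NSC groups, against 11.1% of all genes: Orc4, Cdc14b, Cdc27, Cdc37, Cdc42ep2, Cdc42ep3 and Cdc42ep5. Cdc27, a core subunit of the anaphase-promoting complex, differed by -1.17, -1.53 and -1.39. Its partners Cdc16 and Cdc23 were called in none of the comparisons with MEF. The value of Cdc14b, a phosphatase, holds for 1 probe only: the brightest gave -1.23, -1.25 and -2.33, and another of its 3 probes gave 0.98, 1.16 and 0.40. Cdc42ep3, an effector of the GTPase Cdc42, read 9.41 and 9.48 in fNSC, 7.76 and 7.86 in pNSC, 10.57 and 10.59 in miPS-NSC, and 12.24 and 12.34 in MEF. No arrays of different groups overlapped for this gene.

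The share of calls against MEF depends on scaling. Median centring without background correction moved the median of all genes by -0.54 in fNSC, -0.50 in pNSC and -0.56 in miPS-NSC. Relative to the median of all genes, the members' median stood at 1.30, 1.27 and 0.88 under the chosen scaling and at 0.95, 1.00 and 0.63 under median centring. Calls then numbered 46 higher and 14 lower in fNSC, 44 and 11 in pNSC, and 24 and 14 in miPS-NSC.

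Cell type markers differed between the groups, but their sums did not all follow the cell type: the summed NSC markers were higher in MEF than in miPS-NSC. Of 5 measured fibroblast markers, 5 were detected on both MEF arrays and 1 or 2 in each NSC group, and their summed linear level was 47000 to 48600 in MEF but 646 to 675 for fNSC, 294 to 356 for pNSC and 1500 to 1740 for miPS-NSC. Of 8 measured NSC markers, 8 were detected in each NSC group, whereas Sox2, Fabp7, Hes5 and Olig2 were not detected in MEF. The summed NSC marker level was 15000 to 19500 for fNSC, 19800 to 20700 for pNSC, 9730 to 10900 for miPS-NSC and 15900 to 17900 for MEF. Astrocyte markers summed to 41100 to 41500, 71100 to 73000, 58800 to 65600 and 15300 to 15500 in the same order of groups, and neuron markers to 6210 to 6990, 5840 to 6070, 8460 to 9880 and 1460 to 1550. Oligodendrocyte lineage markers, 2 of them measured, summed to 141 to 158, 1900 to 2200, 72.5 to 116 and 3980 to 4230. Their part in the differences of the replication and mitosis genes was not tested.

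In the comparison of miPS-NSC with pNSC the called replication genes were all lower in miPS-NSC. Of 115 members 12 were lower and 7 higher, 16.5% called against 14.6% of all genes, so the share called was close to that of all genes. These 19 calls became 11 with the authors' values, 11 with quantile normalization and 10 with median centring, both without background correction, and 8 of the 19 were called under none of the 3. Among the 86 genes with a role, 11 were lower and 1 was higher, where 6.99% of all genes were lower and 7.64% higher. Log2 differences were below 0 for 66 of these 86 genes, with a median of -0.46, against a median of -0.03 over all genes. With no fold threshold 18 members were higher and 55 lower, in a comparison where 51.6% of all genes passed. The 11 are Rrm2, Mcm3, Ccnd1, Mcm6, Cdc6, Cdc14b, Mcm4, Mcm5, Pcna, Ccne1 and Gins3, and 6 of them belong to licensing and the helicase. Of the 11, Cdc14b, Pcna, Ccne1 and Gins3 were called under none of the other scalings, and the rest under each.

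**Figure D3:**
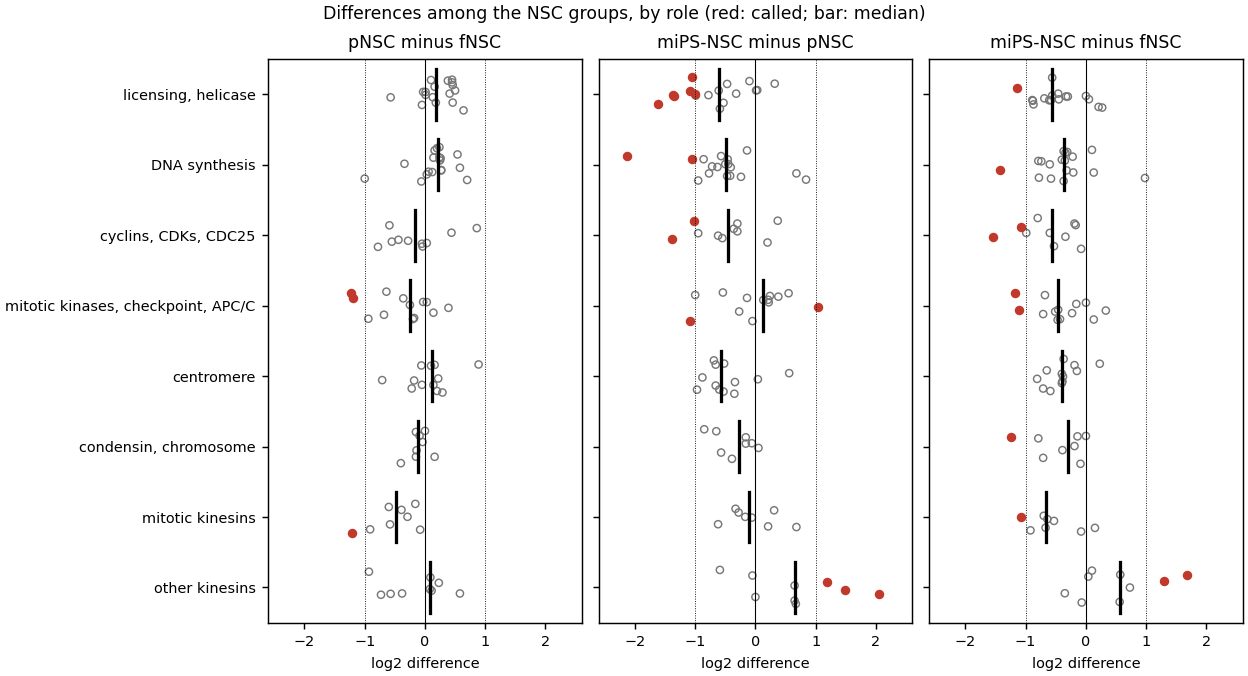
Log2 difference of each member between the NSC groups, by role, with called members in red, the list median as a bar and dotted lines at 2-fold. In the miPS-NSC minus pNSC panel 6 licensing and helicase genes lie at or beyond 2-fold lower and 3 other kinesins beyond 2-fold higher.

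All 6 genes of the helicase ring read lower on both miPS-NSC arrays than on both pNSC arrays, with a median log2 difference of -1.07 and 4 calls, and the same 6 signs and 4 calls were found under each of the 3 other scalings. Mcm3 fell from 10.28 and 10.16 in pNSC to 8.56 and 8.67 in miPS-NSC, a difference of -1.61 ± 0.128 (SE) and 3.04-fold (adjusted p = 7.08e-05). Mcm6 read 12.51 and 12.83 in pNSC and 11.27 and 11.34 in miPS-NSC, 2.57-fold lower (adjusted p = 0.000159), and its 3 other probes gave -1.69, -1.56 and -1.03. Mcm5 read 13.28 and 13.35 against 12.21 and 12.29, and Mcm4 14.48 and 14.62 against 13.40 and 13.55, differences of -1.06 and -1.08. Mcm2 (-0.99, 1.99-fold) missed the fold threshold, and Mcm7 (-0.47) lay furthest from it. The call of Mcm4 was lost without miPS-NSC replicate 1.

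The loading and initiation factors beside the ring were not all alike. Cdc6, which loads the ring, fell from 10.47 and 10.73 to 9.16 and 9.35 (2.55-fold, adjusted p = 9.67e-05), and Gins3 by a difference of -1.0, just at the threshold. Cdc7 and Mcm10 were not called, and the list of 17 had a median of -0.61 with 14 genes below 0. In DNA synthesis 16 of 18 genes lay below 0, with a median of -0.49 and 2 calls. Rrm2 had the largest fall of all members: it read 11.09 and 10.99 in pNSC and 9.03 and 8.79 in miPS-NSC, 4.39-fold lower (adjusted p = 1.63e-05), and its second probe gave -1.52. Pcna, at 9.51 and 9.99 against 8.49 and 8.90, fell by 1.06 on the log2 scale, and this call, like those of Ccne1, Gins3 and Cdc14b, was lost without pNSC replicate 2 or without miPS-NSC replicate 1.

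Ccnd1 was at its highest in pNSC, with 15.17 and 15.30, against 13.83 and 13.86 in miPS-NSC and 14.38 and 14.37 in fNSC. Its log2 difference between miPS-NSC and pNSC was -1.39 ± 0.0814 (2.62-fold, adjusted p = 1.75e-05), and its other probes gave -1.33 and -1.59. Ccne1, the other E-type cyclin, read 6.97 and 7.26 in pNSC and 5.87 and 6.31 in miPS-NSC, where it was detected on 1 array, at least 1.84-fold lower.

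**Figure D4:**
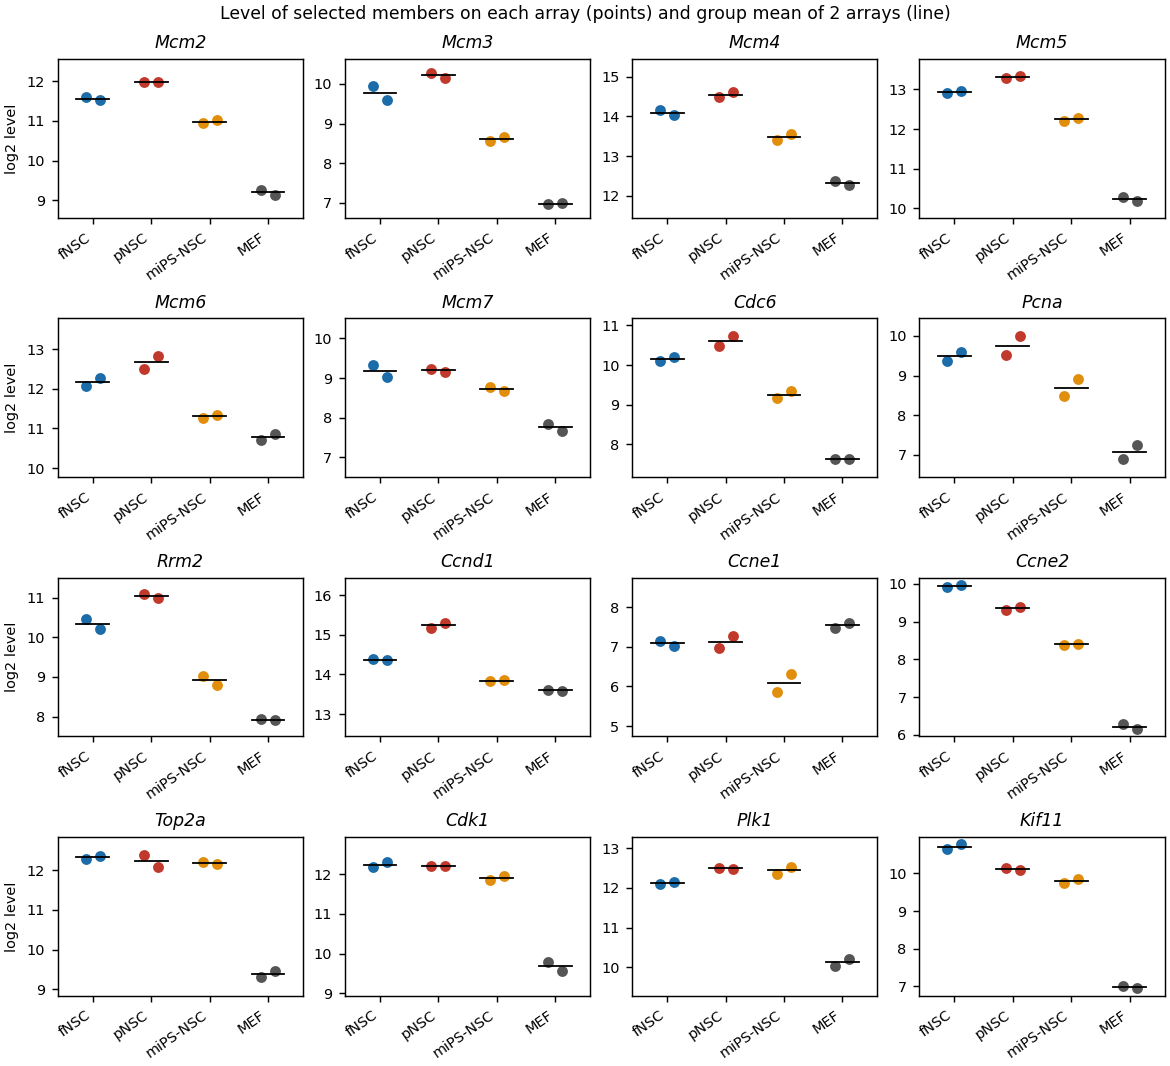
Log2 level of 16 members on each array (points) with the mean of the 2 arrays of a group (line), all axes spanning the same 4 log2 units or more around each gene. The 6 ring genes Mcm2 to Mcm7 have the same order of group means, pNSC, fNSC, miPS-NSC, MEF, while Top2a, Cdk1 and Plk1 stand nearly level over the NSC groups.

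Mitotic genes had few calls in this comparison. The 13 mitotic kinase, checkpoint and anaphase-promoting complex genes had a median of 0.13, with Cdca8 higher (1.04 ± 0.0859, adjusted p = 8.42e-05) and Cdc14b lower (-1.08). The call of Cdca8 was lost under each of the 3 other scalings, which gave 0.79 to 0.90, and without pNSC replicate 2. Of the 8 mitotic kinesins 5 lay below 0 and none was called, and of the 8 condensin and mitotic chromosome genes none was called. Top2a differed by -0.06 ± 0.117, Plk1 by -0.05 ± 0.103 and Cdk1 by -0.30 ± 0.104, differences that did not reach a call. Centromere genes lay between: 10 of 12 were below 0 with a median of -0.57, and none was called. Whether replication and mitosis genes differ in their response was not tested. Marker levels differed between the same groups, as given above: on both miPS-NSC arrays the summed NSC markers lay below both pNSC arrays, and the summed neuron markers above them.

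Against fNSC, miPS-NSC had 9 members lower and 3 higher, 10.4% called against 14.1% of all genes (8.5% higher, 5.61% lower). The signs again ran mostly one way, with 89 of 115 log2 differences below 0 and a median of -0.37, where all genes had -0.04. The 9 were Ccne2, Rrm2, Cdca5, Bub3, Cdc34, Mcm3, Cdc14b, Cdc25a and Kif23. The 12 calls became 6, 5 and 6 under the other scalings in the order given above, and 5 of the 12 were called under none of them: Bub3, Cdc14b, Cdc25a, Mcm3 and Cdc42ep3. Cdca5 and Kif23 were called under 1 of the 3. Ccne2 fell by 1.54 on the log2 scale (2.91-fold, adjusted p = 1.21e-05), with both miPS-NSC arrays more than a doubling below both fNSC arrays. Rrm2 read 10.47 and 10.20 in fNSC and was 2.70-fold lower in miPS-NSC. Cdca5, sororin, which guards cohesion between sister chromatids, read 9.85 and 10.12 against 8.67 and 8.80, 2.38-fold lower. Bub3, of the spindle checkpoint, read 10.13 and 10.02 against 8.87 and 8.92, 2.26-fold lower, and Kif23, a motor of the dividing cell's midzone, read 11.18 and 11.29 against 10.22 and 10.09, 2.11-fold lower.

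All 6 ring genes were lower in miPS-NSC than in fNSC at an adjusted p of 0.0181 or less, with a median of -0.65, and Mcm3 alone reached 2-fold (-1.15, adjusted p = 0.000355). That call was lost without fNSC replicate 1 and under each of the 3 other scalings, in all of which the 6 signs were negative. With no fold threshold, 51.4% of all genes pass the adjusted p in this comparison. Mitotic kinesins lay below 0 in 7 of 8 cases (median -0.66), and all 10 cyclin, CDK and CDC25 genes did (median -0.56). Cdca8 (-0.16), Top2a (-0.14) and Cenpa, the histone H3 of centromeres (-0.15), were not called.

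Between pNSC and fNSC few members differed. A total of 5 was lower and 0 higher in pNSC, 4.35% called against 11.4% of all genes (6.57% higher, 4.87% lower), and the median was -0.04 (all genes -0.01). With no fold threshold, 22 members were higher and 29 lower at an adjusted p under 0.05, in a comparison where 45% of all genes passed. The called members are Cdc20, Kif2c, Cdca8, Cdc42ep3 and Cdc42ep2, of which the first 3 have a mitotic role. Cdc20 read 12.33 and 12.26 in fNSC and 10.90 and 11.23 in pNSC, 2.35-fold lower (adjusted p = 0.00024). Its 3 other probes gave -1.16, -1.48 and -1.13. Kif2c, a motor that takes microtubules apart at centromeres, read 10.96 and 11.06 against 9.79 and 9.83, 2.31-fold lower, and Cdca8 10.61 and 10.65 against 9.47 and 9.38, 2.30-fold lower. Cdc20 and Kif2c were called under each of the 3 other scalings and Cdca8 under 2 of them.

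Replication genes lay mostly above 0 in pNSC and none was called. The 6 ring genes all lay above 0 in pNSC with a median of 0.43, and 5 of them had an adjusted p between 0.00717 and 0.0256 at folds of 1.30 to 1.41. Mcm7 differed by 0.01 (adjusted p = 0.95). Ccnd1 differed by 0.86 ± 0.0814 (its other probes gave 0.70 and 2.18). The mitotic lists lay on both sides of 0. Of the 12 centromere genes 7 lay above 0, among them Cenpq, of the inner kinetochore (0.89), and Plk1 differed by 0.39 (adjusted p = 0.0199). All 8 mitotic kinesins lay below 0 with a median of -0.49, among them Kif23 (-0.91) and Kif11 (-0.60). Aurka (-0.68), Cenpa (-0.71) and Cdca3 (-0.94) were also lower in value and passed the adjusted p without the fold.

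All 3 mitotic genes called lie on chromosome 4, where genes as a whole were lower in pNSC. On that chromosome 10 of 10 members lay below 0, with a median of -0.78, and 3 were called. Over all 493 genes tested on chromosome 4 the median was -0.70, with 112 called lower and 14 higher, so the members stand about where their chromosome does. The 10 include Pole3, a subunit of polymerase epsilon, with 10.05 and 9.88 in fNSC and 9.04 and 8.90 in pNSC (-1.0, just under 2-fold and not called), and Ccne2 (-0.59), Orc3, Kif1b, Kif24, Cenps and Cdc42 (-0.83). On chromosome 19, the 6 members had a median of -0.37 with 1 called, Cdc42ep2, where all 290 genes had -0.47. Among the 99 members on other chromosomes 1 was called, Cdc42ep3, and the median was 0.01.

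**Figure D5:**
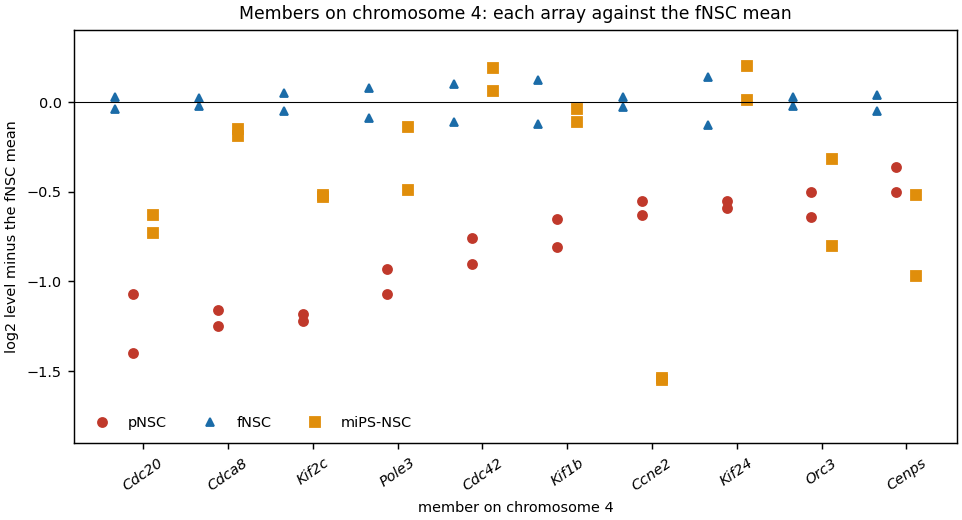
Log2 level of the 10 members on chromosome 4 on each NSC array, minus the gene's fNSC mean. Both pNSC arrays (circles) lie below both fNSC arrays (triangles) for each gene, and the miPS-NSC arrays (squares) lie above both pNSC arrays except for Ccne2, Orc3 and Cenps, where at least 1 lies below both.

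In miPS-NSC the chromosome 4 genes stood mostly above pNSC again. Of the 10 members 8 were above 0 in miPS-NSC minus pNSC, with a median of 0.66, beside a median of 0.63 over the chromosome. Cdca8, whose call in this comparison was lost under the other scalings, is one of them, as are Cdc20 (0.55) and Kif2c (0.68), which were not called. Ccne2 did not follow: it read 9.31 and 9.39 in pNSC and 8.39 and 8.4 in miPS-NSC.

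Between any NSC groups 27 members were called, and 88 were called in none. The share of all genes called between any NSC groups was not taken. In the single comparisons it was 11.4% (pNSC with fNSC), 14.6% (miPS-NSC with pNSC) and 14.1% (miPS-NSC with fNSC). Promoter shares were not taken for the 27 or the 88 members, only for the shorter lists below. Over all members with a promoter, 20.4% held an E2F match and 33.0% a CHR match. Of the 12 members lower in miPS-NSC than in pNSC, 10 had a promoter, and 50.0% of these held an E2F match and 10.0% a CHR match. The 5 members lower in pNSC than in fNSC held 0.0% and 60%. Rrm2, the member with the largest fall, held a CCAAT match and no E2F or CHR match. Kif2c held 1 CHR match. These shares come from few promoters and carry no test, and the roles of the called genes were not allowed for. Mcm3, Mcm4, Mcm5, Mcm6, Cdc6 and Gins3 are licensing and helicase genes, a list with an E2F share of 46.7%. Cdc20 and Cdca8 belong to the mitotic kinase, checkpoint and anaphase-promoting complex list and Kif2c to the mitotic kinesins. Those lists had CHR shares of 58.3% and 87.5%.

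Among transport and other kinesins the calls between NSC groups were all in 1 direction. Of 9 tested, 3 were higher in miPS-NSC than in pNSC and 0 lower, with a median of 0.65. Of all genes, 7.64% were higher and 6.99% lower in that comparison. Kif5c, a motor of axonal transport, read 7.75 and 7.44 in fNSC, 7.05 and 7.38 in pNSC, 9.21 and 9.32 in miPS-NSC, and was not detected in MEF (5.60 and 5.61). It was 4.13-fold higher in miPS-NSC than in pNSC and 3.17-fold higher than in fNSC. Kif3a, of the motor that serves cilia, read 9.64 and 9.71, 9.98 and 9.6, 10.95 and 10.99, and 10.26 and 10.33 in the 4 groups in the same order, 2.27-fold above pNSC and 2.46-fold above fNSC, the former call being lost under median centring and without pNSC replicate 2. Kif21a was 2.81-fold higher than in pNSC, a call found under none of the other scalings. Summed neuron markers were highest in miPS-NSC as well, and their part was not tested.

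The other name matches had no common direction, with a median of -0.14 between miPS-NSC and pNSC. Cdc42ep3 was 6.84-fold higher in miPS-NSC than in pNSC and 3.11-fold lower in pNSC than in fNSC. Cdc42ep2 moved the same way, at least 3.02-fold and at least 2.33-fold, but was detected on 1 pNSC array, and its calls were lost under each of the 3 other scalings. Poldip2, a partner of polymerase delta, was 2.17-fold lower in miPS-NSC than in pNSC (12.48 and 12.56 against 11.34 and 11.46). Cdc34, a ubiquitin-conjugating enzyme of the cell cycle, read 10.96 and 10.99 in fNSC against 9.78 and 9.84 in miPS-NSC, 2.24-fold lower. Cdca7 was 12.6-fold, 12.2-fold and 11.3-fold higher than MEF in fNSC, pNSC and miPS-NSC.

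Genes of the same pathways that the name pattern does not take were read from lists of 112 genes, 75 of them measured. Against MEF 54 were higher and 5 lower in fNSC, 46 and 7 in pNSC, and 45 and 5 in miPS-NSC. Of all genes, 25.9% were higher and 17.2% lower in fNSC, 25.8% and 17.6% in pNSC, and 24.8% and 17.2% in miPS-NSC. Of 22 other replication genes, 21, 18 and 16 were higher and 0 lower. The B-Myb gene Mybl2, of the MYB-MuvB complex, was higher by 2.91, 3.44 and 2.20, and the mitotic factor Foxm1 by 2.56, 2.6 and 2.09. E2f1 was called in none of the comparisons with MEF, at -0.24, 0.26 and -0.36.

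Between miPS-NSC and pNSC, 9 of the 75 were lower and 6 higher, where 6.99% of all genes were lower and 7.64% higher. Of the 22 other replication genes 20 lay below 0, with a median of -0.69, and 4 were called: Dut (-1.25), the flap endonuclease Fen1 (-1.15), Atad2 (-1.06) and thymidylate synthase Tyms (-1.01). Mybl2 read 11.49 and 11.37 in pNSC and 10.19 and 10.18 in miPS-NSC (-1.24), and the RB relative Rbl1 differed by -1.12. The 6 that were higher are the CDK inhibitors Cdkn1c (2.89), Cdkn2b (1.38), Cdkn1b (1.15) and Cdkn2a, together with Myc (1.65) and Ccng2. Cdkn2a and Ccng2 were detected on 1 pNSC array only and were at least 24.9-fold and at least 6.25-fold higher. The p53 targets Ccng1 (-2.83) and Cdkn1a (-1.46) were lower. Cdkn2a, which codes for p16 and Arf, read 10.79 and 11.05 in miPS-NSC, 8.77 and 9.03 in fNSC, and 6.30 and 5.45 in pNSC, with MEF at 10.92 and 10.79.

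Against fNSC, 5 pathway genes were higher in miPS-NSC and 7 lower, where 8.5% of all genes were higher and 5.61% lower. The higher ones were Cdkn2b (5.02), Cdkn2a (2.02), Cdkn1c (1.68), Myc (1.53) and Ccng2 (1.27). The lower ones were Ccng1 (-2.80), Spc24 (-2.04), Cdkn1a (-1.81), Fen1 (-1.52), Ccnf (-1.40), Dsn1 (-1.21) and Incenp (-1.04). Incenp is the scaffold of the chromosomal passenger complex. Between pNSC and fNSC 1 was higher, Cdkn2b (3.64), and 7 were lower, where 6.57% of all genes were higher and 4.87% lower. Spc24, a kinetochore subunit, read 8.64 and 8.77 in fNSC, 6.71 and 6.64 in pNSC, 6.75 and 6.58 in miPS-NSC, and 8.55 and 8.54 in MEF, so that pNSC and miPS-NSC were 4.09-fold and 4.10-fold below fNSC. The other mitosis genes lower in pNSC were Melk (-1.03) and Ube2c, detected on 1 pNSC array and at least 2.05-fold lower, and the replication gene was Rnaseh2c (-1.01). Cdkn2a and Ccng2, each detected on 1 pNSC array, were at least 6.14-fold and at least 2.59-fold lower. Cdkn1c differed by -1.21. Melk and Cdkn2a lie on chromosome 4 and Rnaseh2c on chromosome 19, where genes as a whole were lower in pNSC. Cdkn2b, which was higher, also lies on chromosome 4. Spc24, Ube2c, Ccng2 and Cdkn1c lie on other chromosomes. Of 27 other mitosis genes measured, 24 lay below 0 in this comparison, with a median of -0.23.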

How the data were processed

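RNA from 4 kinds of mouse cells was measured on 8 Illumina BeadChips, 2 per group. The deposited signal table holds the bead intensity of 25697 probes per array, not normalized, with a detection p-value per probe, per the file headers; the submitters' processing notes name GenomeStudio 2009.2. The authors' deposited value table gives processed log2 values for 12421 of these probes, with centring and normalization not stated, and was used as an alternative. Genes were named from the platform annotation, in which 11692 probes had 1 symbol.

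Intensities were background corrected, quantile normalized and put on the log2 scale with neqc in limma 3.58.1 (R 4.3.3, offset 16). Probes needed a detection p below 0.01 on each array of 1 group or more (12478 probes), and the brightest kept probe stood for each gene, which left 8107 genes. One limma fit over the 8 arrays (4 residual and 2.98 prior degrees of freedom) gave 6 comparisons, with p-values adjusted by Benjamini-Hochberg over all 8107 genes. A call needs an adjusted p under 0.05 and a 2-fold change. In simulated data for the pNSC and fNSC comparison, 200 of 8107 genes were changed, all by more than the 2-fold threshold. Of these 92.5% were recovered, with 2 false calls. Changes near 2-fold were not simulated, and the spread was that between the arrays of a group. The number of arrays limits the precision.

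Genes named in the text are the 4 markers, all members called (where over 30, the 15 largest each way), up to 3 further bright members per role list, called pathway genes, and members on chromosomes 4 and 19. The members and lists were chosen with earlier results of these data known. Alternatives were the authors' values, quantile normalization and median centring without background correction, other probe and detection filters, other probes of a gene, a replicate block and leaving out each array. Mki67, Ccnb1, Aurkb, Bub1 and the condensin genes Smc2 and Smc4 were not analysed here.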

Additional observations from a re-analysis of the deposited data

How the results depend on the processing

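Against MEF the count of members called stayed within 1.5 times its value in all 3 comparisons except under median centring without background correction, with 55 in pNSC (44 higher, 11 lower) and 38 in miPS-NSC (24 higher, 14 lower); fNSC had 60 (46 and 14). Leaving out 1 array gave 84 to 88 calls in fNSC, 81 to 84 in pNSC and 74 to 78 in miPS-NSC. Between miPS-NSC and pNSC, 19 calls became 11 with the authors' values, 11 with quantile normalization without background correction, 10 with median centring, 12 over the 86 role genes alone and 73 with no fold threshold, and 15 to 24 without 1 array. Between miPS-NSC and fNSC, 12 calls became 6, 5 and 6 under the same 3 scalings and 72 with no fold threshold, and 12 to 15 without 1 array. Between pNSC and fNSC, 5 calls became 3 with median centring, 3 over the role genes, 1 without chromosomes 4 and 19 and 51 with no fold threshold, and 5 to 8 without 1 array, 8 being the count without pNSC replicate 1. The cause was not tested, except where fewer genes or no fold threshold set the count. Of the single calls, 29 of 284 were lost on leaving out at least 1 array. Another probe of the gene turned the direction for Cdc14b against MEF (0.98 in fNSC, 1.16 in pNSC, 0.40 in miPS-NSC), for Orc4 (0.04) and Ncaph2 (-0.05) in pNSC, and for Ncapd2 (-0.16) in miPS-NSC. With the title ending as a replicate block the counts were 5, 19, 12, 87, 83 and 78, as without it. All 284 calls had the same outcome. The deviations of arrays with the same ending from their group means had correlations of -0.0017 to 0.0709. These values cannot show whether such arrays share a run or whether a pair shares its RNA. Dim probes set the limit: 12 members were detected on neither MEF array.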
